A study of Mus musculus with 21 samples.

Results

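The 9 genes described here encode cell surface receptors that guide leukocyte movement or sense fatty acids: Fpr1, Fpr2, Gpr84, Cmklr1, Ccrl2, Ccr1, Ccr2, Cxcr4 and Cx3cr1. They were taken by symbol from a table of 34573 genes, and all 9 had a row and passed the filter on low counts, which left 6812 genes. The cells were macrophages grown from the bone marrow of C57bl/6 mice aged 12 weeks, kept for 6 days in L929 cell medium as the source of M-CSF. RNA was measured in 21 libraries of full-length cDNA made by template switching and amplification, a variation of SmartSeq2.

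Dimethyl malonate (DMM), a cell-permeable ester of the succinate dehydrogenase inhibitor malonate, or succinate was given for 3 h before lipopolysaccharide (LPS), the bacterial ligand of Toll-like receptor 4. No doses were found in the labels. After LPS for 4 h there were 2 libraries with DMM first, 1 with succinate first and 2 with LPS alone. After LPS for 48 h there were 2 libraries with DMM first, 1 with succinate first and 1 with LPS alone that entered the comparisons. Without LPS there were 4 libraries with DMM, 4 with succinate and 3 untreated controls. The table names these 11 columns by treatment and number only, so their hours are not known here. The labels do not say whether libraries of a group came from separate mice or cultures, so p-values measure the spread between these libraries, which may be technical.

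A further library, labelled LPS for 48 h replicate 1, was kept apart because it looked unstimulated: it had 0.9 CPM of Fpr1, 0.9 CPM of Fpr2 and 3.5 CPM of Gpr84, against 1299, 179 and 389.9 CPM in LPS 48 h replicate 2. Set against DMM replicate 2, its counts gave a chi-square per degree of freedom of 1.22 over genes, the lowest of any pair of libraries. The lowest value for libraries of the same group was 2.91. Total counts ran from 662186 to 1546867 per library. CPM are counts per 1000000 of the TMM-scaled library size over the kept genes, and 1 CPM is close to 1 read here, so a level of a few CPM rests on a handful of reads. All 8 macrophage marker genes listed were detected, with summed levels of 53400 to 96100 CPM of all counts without LPS, 96700 to 130000 at 4 h and 92500 to 127000 at 48 h. Markers of B, T, NK, erythroid, mast, endothelial and dendritic cells summed to at most 12.1 CPM in any library.

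Chemoattractant receptors are G protein-coupled receptors that mostly signal through Gi proteins, and engaged receptors drive actin-based migration toward a source of ligand. Fpr1 and Fpr2 bind N-formyl peptides released by bacteria and by damaged mitochondria. Gpr84 responds to medium-chain fatty acids. Cmklr1 is the signalling receptor for chemerin, and Ccrl2 binds chemerin without signalling and presents it to other cells. Ccr1 and Ccr2 are receptors for CC chemokines, Ccr2 being the receptor for Ccl2 that brings monocytes out of the bone marrow. Cxcr4 binds Cxcl12 and retains cells in the marrow, and Cx3cr1 binds fractalkine and marks resident macrophages and patrolling monocytes.

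Per kilobase of transcript, the order of the genes' levels differed with and without LPS. After LPS for 4 h the medians over 5 libraries were 1100 CPM per kb for Fpr1, 218 for Gpr84, 114 for Fpr2, 7.77 for Cmklr1, 6.04 for Ccrl2, 4.55 for Ccr1, 1.02 for Cx3cr1, 0.499 for Cxcr4 and 0.192 for Ccr2. The lowest Fpr1 level, 285 CPM per kb, lay above the highest of Gpr84, 278, and of Fpr2, 253. These 3 genes stood above the other 6, their lowest level in any library being 14.3 CPM per kb and the highest of the others 13.8. Without LPS the median levels over 11 libraries were 9.2 CPM per kb for Cxcr4, 4.17 for Cx3cr1, 1.64 for Ccr2, 1.54 for Ccrl2, 1.51 for Fpr1 and 1.11 for Cmklr1, with Gpr84 and Ccr1 at 0.638 and 0.565 and Fpr2 at 0. The ranges of neighbours in this order overlapped, Cxcr4 running from 1.77 to 33.4 CPM per kb and Cx3cr1 from 2.82 to 14.9.

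**Figure D1:**
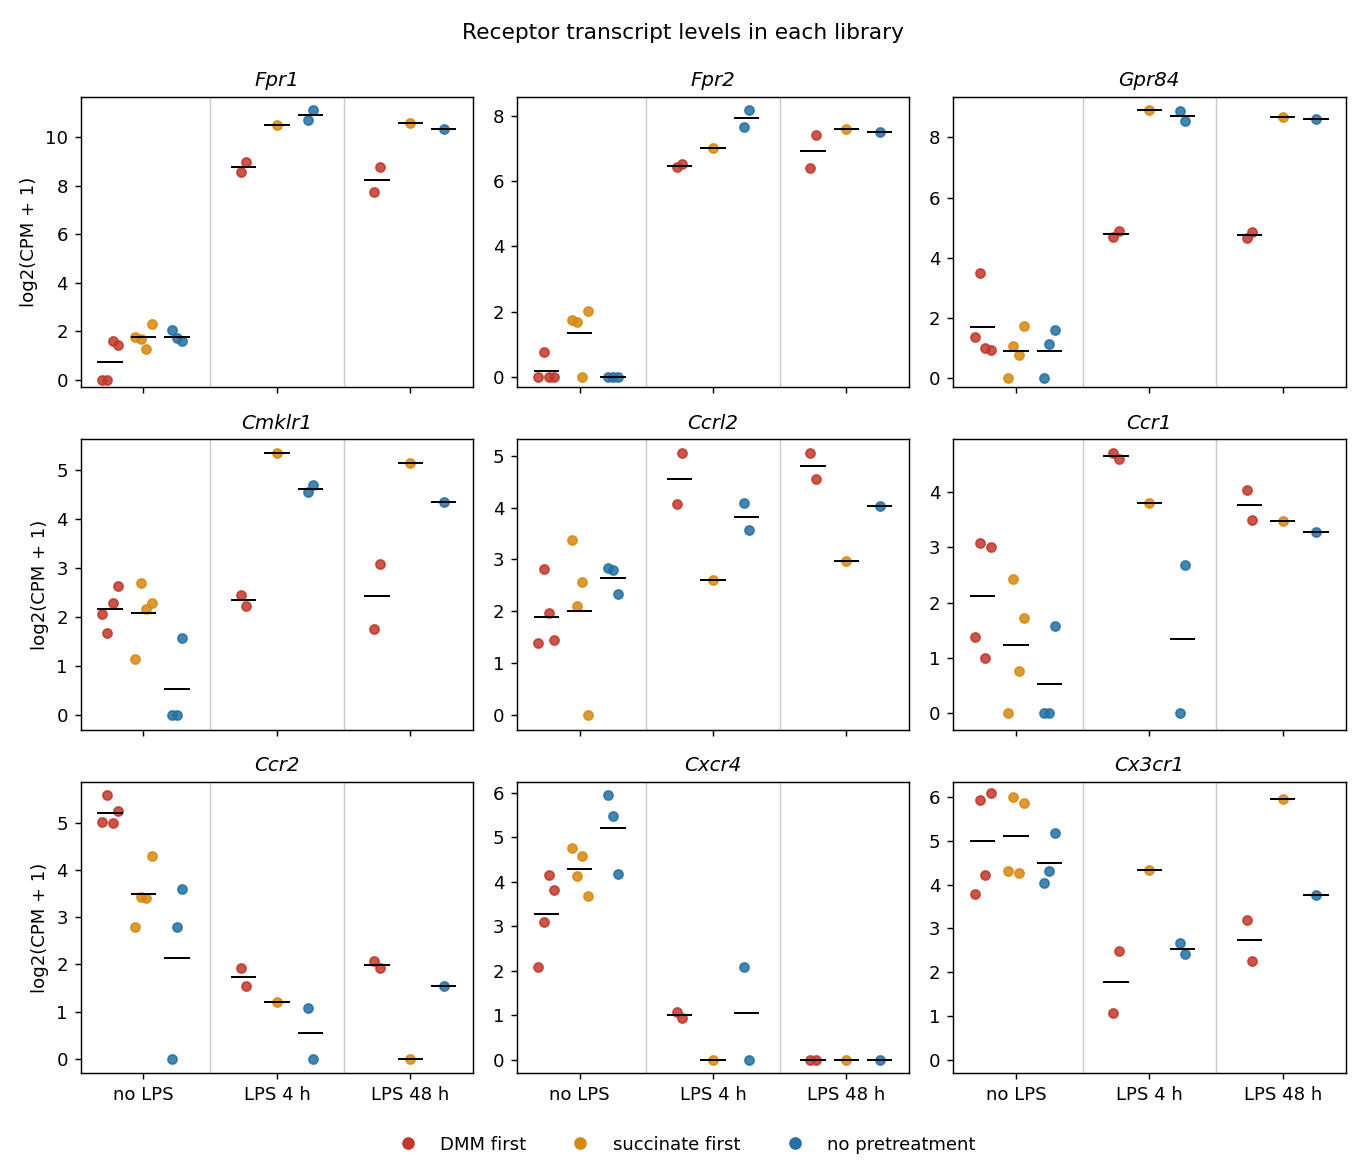
Level of each receptor gene in 20 libraries, as log2(CPM + 1); each point is a library, each bar the mean of its group, and colours give the pretreatment. Fpr1, Fpr2 and Gpr84 sat at 24.3 CPM or more in all libraries with LPS shown and at 0 to 10.4 CPM in all libraries without it. Cxcr4 was at 0 in all 4 libraries at 48 h. The library kept apart, low in Fpr1, Fpr2 and Gpr84, is not shown.

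Averaged over pretreatments, 6 of the 9 receptor genes rose with LPS at both times, and Ccr2 and Cxcr4 fell at both times. Fpr1, Fpr2 and Gpr84 stood at 24.3 to 2206 CPM with LPS and at 0 to 10.4 CPM without it. The library kept apart, for which low levels of these genes were given above, is not in these ranges. Cmklr1, Ccr1 and Ccrl2 rose to 39.9 CPM at most, and Ccr2 and Cxcr4 fell to a few reads or none. In the comparison of LPS for 4 h with no LPS, averaged over the 3 pretreatments, all 9 members passed an adjusted p of 0.05, 6 higher and 3 lower, where 45.1% of all genes passed (edgeR's quasi-likelihood test with Benjamini-Hochberg adjustment over all genes, here and below). The median log2 fold change was 2.29 over the members and -0.10 over all genes. At 48 h, 6 members were higher and 2 lower, where 43.9% of all genes passed, and the medians were 2.43 over the members and -0.13 over all genes. The members were chosen with earlier results of these data known. Fpr1, Fpr2 and Cmklr1 passed the low-count filter only through libraries with LPS, and Ccr2 and Cxcr4 only through those without it. The shares and medians over all genes, here and below, therefore do not test the members as a set. In bulk RNA, fewer cells that express a gene and less RNA per cell cannot be told apart.

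The formyl peptide receptors rose at both times. After LPS for 4 h, Fpr1 had 378 and 495 CPM with DMM first, 1457 CPM with succinate first and 1678 and 2206 CPM with LPS alone. At 48 h it had 211 and 429 CPM with DMM first, 1533 CPM with succinate first and 1299 CPM with LPS alone. Without LPS its level in 11 libraries had a lowest value of 0, a median of 2.0 and a highest of 3.9 CPM, so the groups did not overlap. The library kept apart, at 0.9 CPM, is not counted in this. The log2 fold change was 9.11 ± 0.29 (SE) at 4 h (adjusted p = 8.47e-22) and 8.80 ± 0.29 at 48 h (adjusted p = 2.43e-21). Fpr2 had 85.4 and 90.1 CPM at 4 h with DMM first, 129 CPM with succinate first and 201 and 287 CPM with LPS alone. At 48 h the levels were 84.2 and 167 CPM with DMM first, 191 CPM with succinate first and 179 CPM with LPS alone. All 3 controls had no Fpr2 read, and the other libraries without LPS ran from 0 to 3.1 CPM. Summed CPM were 186-fold higher at 4 h (95% counting interval 97.5 to 408) and 192-fold higher at 48 h (100 to 421), and both comparisons passed (adjusted p = 9.68e-18 and 7.86e-18). Fpr2 overlaps Fpr3 in the annotation, and Fpr3 had at most 1 count in any library.

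Fpr1 and Fpr2 lie next to each other on chromosome 17 in opposite orientation, with starts 3.9 kb apart, and across 20 libraries their levels on the log2(CPM + 1) scale had a Pearson correlation of 0.98. Gpr84, on chromosome 15, had 0.92 with Fpr1 and 0.91 with Fpr2. The libraries with and without LPS both enter these values. Because these 3 genes moved together, the 250 bases before their starts are shown, from RefSeq on GRCm38.p6 and 5′ to 3′ on the strand of the gene. The build behind the deposited counts is not stated in the sources used here. Capitals mark matches on either strand to TTNCNNAA, a loose form of the site of C/EBP factors, which act in myeloid cells.
Fpr1 (chr17:17883940-17884189, minus strand): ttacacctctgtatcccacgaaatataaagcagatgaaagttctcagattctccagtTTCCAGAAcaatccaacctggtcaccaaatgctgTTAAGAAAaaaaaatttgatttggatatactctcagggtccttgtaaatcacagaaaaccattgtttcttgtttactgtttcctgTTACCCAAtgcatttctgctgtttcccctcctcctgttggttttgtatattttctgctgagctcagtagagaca
Fpr2 (chr17:17887574-17887823, plus strand): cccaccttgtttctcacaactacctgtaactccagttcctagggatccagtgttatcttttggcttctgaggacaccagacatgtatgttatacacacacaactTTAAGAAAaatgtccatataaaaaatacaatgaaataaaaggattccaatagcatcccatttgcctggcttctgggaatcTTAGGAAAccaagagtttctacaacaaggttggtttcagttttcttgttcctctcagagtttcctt
Gpr84 (chr15:103310439-103310688, minus strand): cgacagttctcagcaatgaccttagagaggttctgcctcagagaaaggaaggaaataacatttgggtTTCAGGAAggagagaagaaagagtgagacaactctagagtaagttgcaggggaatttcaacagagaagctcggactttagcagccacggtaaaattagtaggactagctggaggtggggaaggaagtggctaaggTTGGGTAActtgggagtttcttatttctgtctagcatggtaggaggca
Fpr1 had 3 matches, Fpr2 had 2 and Gpr84 had 2, and 6 of the 9 members had at least 1, in a genome where 36.8% of 32851 such windows had one. Ccr1, Ccr2 and Cxcr4 also had a match, of which Ccr2 and Cxcr4 fell with LPS. Cmklr1 and Ccrl2, which rose, and Cx3cr1 had 0. GAGGAA, the core of the PU.1 site, was found on either strand in 3 members (23.3% of all windows), and TGANTCA of AP-1 type in 0 (6.75%). None of the marked matches in the 3 windows shown overlapped a match to either of these. A match describes letters only.

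Gpr84, the medium-chain fatty acid receptor, had 24.7 and 28.8 CPM at 4 h with DMM first, 480.1 CPM with succinate first and 466 and 377 CPM with LPS alone. At 48 h it had 24.3 and 28.2 CPM with DMM first, 405 CPM with succinate first and 389.9 CPM with LPS alone. Without LPS the level had a lowest value of 0, a median of 1.1 and a highest of 10.4 CPM, and no library with LPS in the comparisons fell into that range. The library kept apart, at 3.5 CPM, did, and its low Gpr84 level was among the values given for setting it aside. The log2 fold change was 6.60 ± 0.32 at 4 h (adjusted p = 1.66e-15) and 6.47 ± 0.33 at 48 h (adjusted p = 6.38e-15). Since controls held 3 reads, the ratio of summed CPM is given too, 103 at 4 h (95% counting interval 69.4 to 160) and 89.1 at 48 h (60 to 139). The highest level without LPS belonged to DMM replicate 2, and without that library the values were 7.19 and 7.07. Gm49482, an antisense gene in the annotation, overlaps Gpr84, and whether counting used strand is not stated.

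Averaged over pretreatments, the chemerin receptors Cmklr1 and Ccrl2 also rose at both times. Cmklr1 had 4.5 and 3.7 CPM at 4 h with DMM first, 39.9 CPM with succinate first and 22.4 and 24.7 CPM with LPS alone. At 48 h it had 2.4 and 7.5 CPM with DMM first, 34.1 CPM with succinate first and 19.3 CPM with LPS alone. Without LPS it ran from 0 to 5.5 CPM with a median of 3.2, a range in which 3 of the 4 libraries given DMM before LPS fell, while the other libraries with LPS lay above it. The log2 fold change was 2.83 ± 0.37 at 4 h (adjusted p = 1.60e-07) and 2.72 ± 0.39 at 48 h (adjusted p = 9.37e-07). The ratio of summed CPM was 5.49 at 4 h (95% counting interval 3.64 to 8.46) and 5.02 at 48 h (3.24 to 7.92). Control replicate 4 held both of the 2 Cmklr1 reads of the control group, and without it the values were 3.80 and 3.70. Ccrl2 had 15.7 and 32.5 CPM at 4 h with DMM first, 5.1 CPM with succinate first and 16.0 and 10.8 CPM with LPS alone. At 48 h the levels were 32.4 and 22.5 CPM with DMM first, 6.8 CPM with succinate first and 15.4 CPM with LPS alone, against 0 to 9.4 CPM and a median of 4.0 without LPS. Only the libraries given succinate before LPS fell within the range without LPS. Its log2 fold change was 1.47 ± 0.49 at 4 h (adjusted p = 0.0148) and 1.75 ± 0.45 at 48 h (adjusted p = 0.00224).

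Ccr1, the receptor for Ccl3 and Ccl5, had 25.3 and 23.2 CPM at 4 h with DMM first, 12.9 CPM with succinate first and 0 and 5.4 CPM with LPS alone. At 48 h it had 15.4 and 10.3 CPM with DMM first, 10.2 CPM with succinate first and 8.7 CPM with LPS alone. Without LPS it ran from 0 to 7.5 CPM with a median of 1.6. All 4 libraries at 48 h lay above that range, and at 4 h the pair with LPS alone lay within it. The log2 fold change was 2.29 ± 0.59 at 4 h (adjusted p = 0.00223) and 2.43 ± 0.55 at 48 h (adjusted p = 0.000656). The ratio of summed CPM was 5.90 at 4 h (95% counting interval 3.85 to 9.27) and 4.35 at 48 h (2.7 to 7.11). The call at 4 h was lost without LPS 4 h replicate 2, which held all 5 reads of its group (adjusted p = 0.918). Without control replicate 4, which held both reads of the control group, the log2 fold changes were 3.25 and 3.41.

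Neutrophils are also known to express Fpr1, Fpr2 and Ccr1, so neutrophil markers are given beside them. The summed level of the 9 neutrophil genes listed was 0.897 to 7.55 CPM of all counts without LPS, 38.2 to 422 at 4 h and 7.73 to 60.6 at 48 h. S100a8 had counts in 9 of the 21 libraries, up to 435 in one, and Cxcr2 had at most 6 counts in any of 18 libraries. S100a9, the partner of S100a8, had at most 1 count, and the defining genes Ly6g and Ltf had 0 in all 21 libraries. Monocyte markers reached 8.02 CPM at 48 h, against 0.975 CPM at most without LPS, and fibroblast markers reached 44.0 CPM in a library at 4 h, against 8.32 CPM at most without LPS. The part of these in the results was not tested.

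The chemokine receptors that hold or recruit monocytes went the other way. Ccr2 had 0 to 2.8 CPM in the 5 libraries with LPS for 4 h and 0 to 3.2 CPM in the 4 with LPS for 48 h. Without LPS it had 31.7, 47.0, 31.2 and 37.4 CPM with DMM, 5.9, 9.8, 9.7 and 18.8 CPM with succinate, and 0, 5.9 and 11.1 CPM in controls. Every library except control replicate 1 stood above the highest value with LPS. Summed CPM were 12.1-fold lower at 4 h (95% counting interval 6.24 to 26.7, adjusted p = 1.38e-05). The fitted log2 fold change, to which 2 groups gave 1 read each, was -3.35 ± 0.56, and -4.18 without LPS 4 h replicate 1. At 48 h, where the library given succinate first had no read, summed CPM were 9.24-fold lower (95% counting interval 4.78 to 20.5, adjusted p = 6.60e-05). Counting the library kept apart as LPS for 48 h, Ccr2 did not pass at 48 h (adjusted p = 0.0764). Cxcr4 had 1.1 and 0.9 CPM at 4 h with DMM first, 0 CPM with succinate first and 3.2 and 0 CPM with LPS alone, and 0 in all 4 libraries at 48 h. Without LPS it had 3.2, 7.5, 16.6 and 13.0 CPM with DMM, 25.9, 16.4, 22.9 and 11.7 CPM with succinate, and 60.2, 43.4 and 17.1 CPM in controls. Summed CPM were 19.4-fold lower at 4 h (95% counting interval 8.77 to 53.3, adjusted p = 1.65e-06). They were at least 29.7-fold lower at 48 h, taking a floor of 3 counts over the 4 libraries, which held 0 Cxcr4 reads (adjusted p = 8.69e-07).

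Averaged over pretreatments and against all libraries without LPS, Cx3cr1 fell at 4 h and was not called at 48 h. After LPS for 4 h it had 1.1 and 4.6 CPM with DMM first, 19.3 CPM with succinate first and 5.3 and 4.3 CPM with LPS alone. At 48 h it had 8.1 and 3.8 CPM with DMM first, 61.4 CPM with succinate first and 12.5 CPM with LPS alone. Without LPS it ran from 12.7 to 67.0 CPM with a median of 18.8. The libraries given succinate before LPS lay inside that range at both times, and the others lay below it. It fell at 4 h, with a log2 fold change of -2.42 ± 0.62 (adjusted p = 0.00582), and at 48 h the value of -1.0 ± 0.56 did not pass (adjusted p = 0.176). The 48 h value was 0.03 (adjusted p = 0.958) against the libraries without LPS that have odd column numbers and -1.62 (adjusted p = 8.31e-07) against those with even ones, a division described further on. The annotated span of Cx3cr1 overlaps Wdr48, Gorasp1, Ttc21a, Csrnp1 and Xirp1, of which the highest count in a library was 33.

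Between 48 h and 4 h of LPS, averaged over pretreatments, 0 of the 9 members passed, where 1.23% of all genes did. At an unadjusted p under 0.05, 745 genes differed, and DESeq2 called 89 genes and 0 members. Leaving out Cxcr4 and Ccr2, which had groups without a read, fitted values ran from a log2 difference of -0.32 ± 0.26 for Fpr1 to 1.42 ± 0.81 for Cx3cr1. The Fpr1 value had a 95% interval of -0.86 to 0.22, and for Gpr84 the difference was -0.13 with an interval of -0.72 to 0.47. Fitted on the stimulated groups alone, the Cx3cr1 value of 1.41 passed (adjusted p = 0.0243).

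Against untreated controls only, LPS alone for 4 h raised 4 members and lowered 2, where 27.9% of all genes passed, and LPS alone for 48 h raised 5 and lowered 1, where 20.8% did. The 48 h arm was 1 library, whose spread was taken from the other groups. In a fit with controls alone, genes high only in that library, such as Fpr1 and Gpr84, fell to the low-count filter and were not tested. Fitted with controls alone, with genes filtered anew over these 4 libraries, 1 member passed. Fpr1 rose by 9.55 ± 0.51 on the log2 scale at 4 h (adjusted p = 2.85e-15) and by 8.97 ± 0.53 at 48 h (adjusted p = 2.97e-14). Fpr2 had no read in controls, so its summed CPM were at least 229-fold higher at 4 h and at least 168-fold higher at 48 h, with a floor of 3 counts over the control group. Gpr84, with 3 reads in controls, was 397-fold higher at 4 h (95% counting interval 135 to 1930). Cmklr1, with 2, was 33.3-fold higher (8.68 to 283). Not called at 4 h were Ccr1 (1.76, adjusted p = 0.365), Ccrl2 (1.31, adjusted p = 0.12) and Cx3cr1 (-2.24, adjusted p = 0.159). Cx3cr1 passed with DESeq2 (-2.3, adjusted p = 0.0242) and with the compared groups fitted alone (-2.23, adjusted p = 0.00298). Against odd columns without LPS its value was -1.75 (adjusted p = 0.0154) and against even ones, with 1 control, -2.85. In the fits that each left out a control it did not pass, with adjusted p values of 0.164 to 0.359. At 48 h Ccrl2 (1.52), Ccr2 (-1.5) and Cx3cr1 (-0.88) were not called. Ccr2 passed at 4 h (1 read against 16, adjusted p = 0.0475). It did not pass without control replicate 3 or 4 or without LPS 4 h replicate 1 or 2, with adjusted p values of 0.0798 to 0.296, nor with DESeq2 (adjusted p = 0.103) or with all 21 libraries (adjusted p = 0.248). Ccr1 passed at 48 h (9 reads against 2, adjusted p = 0.0411) and not without control replicate 1 or control replicate 3 (adjusted p = 0.104 and 0.101).

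The effect of DMM on the LPS response was read from DMM before LPS against LPS alone. At 4 h, 5 of the 9 members passed, 4 lower and 1 higher, where 956 of 6812 genes (14%) passed. The median log2 fold change was -0.92 over the members and 0.04 over all genes. Gpr84 fell by 3.98 ± 0.45 on the log2 scale (adjusted p = 2.23e-06), its 2 libraries with DMM first standing at 24.7 and 28.8 CPM and those with LPS alone at 466 and 377 CPM. Cmklr1 fell by 2.46 ± 0.51 (adjusted p = 0.00126), Fpr1 by 2.15 ± 0.39 (adjusted p = 0.000261) and Fpr2 by 1.47 ± 0.34 (adjusted p = 0.00369). Each of these 4 genes, named because they were called here, was lower in both libraries with DMM first than in both with LPS alone. The share of all genes that separated in this way was not counted. Fpr2 no longer passed without LPS 4 h replicate 2 (-1.19, adjusted p = 0.0729) or without DMM and LPS 4 h replicate 1 (-1.43, adjusted p = 0.0784).

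Ccr1 moved the other way at 4 h, with 45 and 25 reads with DMM first and 0 and 5 reads with LPS alone. Its log2 fold change was 3.13 ± 0.75 (adjusted p = 0.0052). It was 2.16 without LPS 4 h replicate 1 (adjusted p = 0.0981) and 3.07 without DMM and LPS 4 h replicate 1 (adjusted p = 0.0610). Without LPS 4 h replicate 2 the LPS group had no read. Ccrl2 was at 0.79 ± 0.52 (adjusted p = 0.333) and Ccr2, Cxcr4 and Cx3cr1 had at most 5.3 CPM in either group and did not pass.

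At 48 h, 2 of the 9 members passed, both lower, where 0.807% of all genes passed. Gpr84 fell by 3.89 ± 0.50 (adjusted p = 0.000111) and Fpr1 by 2.02 ± 0.44 (adjusted p = 0.0157). The Fpr1 call was lost without DMM and LPS 48 h replicate 1 (-1.62, adjusted p = 0.0901) and in the fit on these groups alone. Cmklr1 stood at -1.98 ± 0.62 (adjusted p = 0.133) and passed without DMM and LPS 48 h replicate 2 (-2.90, adjusted p = 0.0306). Fpr2 stood at -0.51 ± 0.40 (adjusted p = 0.609) and Ccr1 at 0.57 ± 0.81 (adjusted p = 0.811). With the library kept apart counted as LPS for 48 h, Gpr84 stood at -2.92 ± 1.16 (adjusted p = 0.251), Fpr1 at -1.05 ± 1.24 (adjusted p = 0.788) and Ccr2 at -2.93 ± 1.03 (adjusted p = 0.187), so that 0 members passed. That library also entered the shared estimate of spread, and at 4 h Ccr1 and Cmklr1 then passed while Gpr84 stood at -3.97 (adjusted p = 0.0607). Without it, LPS alone had 1 library at 48 h, whose spread was taken to be that of the other groups. The effects of DMM at 48 h and 4 h were tested against each other, and 0 of 6812 genes differed by edgeR (0%, with 357 at an unadjusted p under 0.05, and 1 by DESeq2). The Ccr1 difference of -2.56 ± 1.19 had an unadjusted p of 0.0403 and an adjusted p of 0.93, and the Fpr2 difference of 0.96 ± 0.54 an adjusted p of 0.934.

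**Figure D2:**
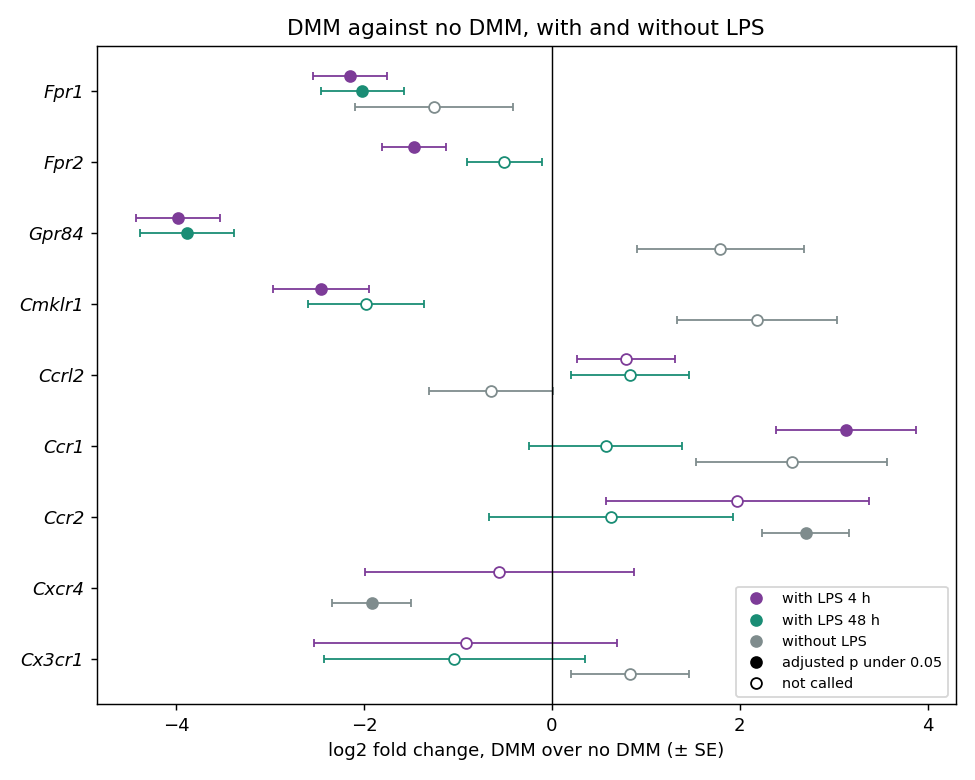
Log2 fold change of DMM over no DMM for each receptor gene, with LPS for 4 h, with LPS for 48 h and without LPS; bars are standard errors and filled points have an adjusted p under 0.05. Gpr84 lay at -3.98 and -3.89 with LPS and at 1.79 without it; genes with no read in a group have no point, and Gpr84, Cmklr1 and Ccr1 without LPS rest on 2 or 3 control reads.

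Without LPS, DMM was followed by more Ccr2 and less Cxcr4 than in untreated controls. These were 2 of the 9 members, 1 in each direction, where 0.558% of all genes passed. The log2 fold change of Ccr2 was 2.70 ± 0.46 (adjusted p = 0.00509), and all 4 libraries with DMM stood above all 3 controls. It was 2.11 without control replicate 1 (adjusted p = 0.0429) and 3.71 without control replicate 4 (adjusted p = 0.00151), and DESeq2 gave neither it nor Cxcr4 an adjusted p. Cxcr4 stood at -1.92 ± 0.42 (adjusted p = 0.0362), with all 4 libraries with DMM below all 3 controls. This call was lost in 5 of the 7 fits that each left out a library, with values of -1.49 to -2.05 and adjusted p values of 0.0539 to 0.348. Those libraries were control replicates 1 and 3 and DMM replicates 1, 2 and 4. Gpr84 (17 reads against 3) had a ratio of summed CPM of 3.86 (95% counting interval 1.12 to 20.5), with 14 of the reads in DMM replicate 2, and Cmklr1 (15 against 2) had 5.11 (1.19 to 46.0). Neither passed, with adjusted p values of 0.436 and 0.277.

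The DMM effect with LPS for 4 h was then tested against that without LPS. The difference passed for 2 of the 9 members, where 5.43% of all genes passed. It was -5.77 ± 0.95 for Gpr84 (adjusted p = 0.000524) and -4.64 ± 0.98 for Cmklr1 (adjusted p = 0.00368). Both rest on the few control reads given above: without control replicate 4 the Gpr84 value was -6.61, and Cmklr1 had no control read left. DESeq2 called Gpr84 (-5.86, adjusted p = 7.12e-06) and gave no adjusted p for Cmklr1. Without DMM replicate 2 the Gpr84 value was -3.99 (adjusted p = 0.0502). For Fpr1 the difference was -0.89 with a 95% interval of -3.22 to 1.43.

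Succinate before LPS gave no call among the 9 members at either time, where 1.03% of all genes passed at 4 h and 0.558% at 48 h. At an unadjusted p under 0.05, 547 genes differed at 4 h and 454 at 48 h, and DESeq2 called 64 and 37 genes, none of them members. Each group with succinate first had 1 library, so the intervals were wide. The Gpr84 difference had a 95% interval of -0.78 to 1.16 at 4 h and -1.07 to 1.18 at 48 h on the log2 scale. For Fpr1 the intervals were -1.36 to 0.53 and -0.83 to 1.31. Fpr2 stood at -0.92 ± 0.43 at 4 h (adjusted p = 0.58) and passed only when the compared groups were fitted alone (-0.89, adjusted p = 0.00237). Cx3cr1 stood at 1.98 ± 1.45 at 4 h (adjusted p = 0.837) and 2.28 ± 1.22 at 48 h (adjusted p = 0.843). Against untreated controls, succinate without LPS gave no call among the members or among all 6812 genes (0%), with 363 genes at an unadjusted p under 0.05 and 2 by DESeq2.

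DMM was also set against succinate. DMM before LPS for 4 h was lower than succinate before LPS for 3 members and higher for 0, where 7.57% of all genes passed. The values were -4.17 ± 0.50 for Gpr84 (adjusted p = 5.12e-06), -3.22 ± 0.57 for Cmklr1 (adjusted p = 0.000349) and -1.74 ± 0.44 for Fpr1 (adjusted p = 0.0103). The Fpr1 call was lost without DMM and LPS 4 h replicate 1 (-1.55, adjusted p = 0.142). At 48 h the same comparison was lower for 3 members, where 3.86% of all genes passed, with -3.94 ± 0.50 for Gpr84 (adjusted p = 1.39e-05), -2.79 ± 0.58 for Cmklr1 (adjusted p = 0.00365) and -2.26 ± 0.44 for Fpr1 (adjusted p = 0.00177). On the compared groups alone Fpr1 was at -2.09 and did not pass (adjusted p = 0.341). With all 21 libraries none of the 3 passed at 48 h, with adjusted p values of 0.199 for Gpr84, 0.104 for Cmklr1 and 0.528 for Fpr1. Cmklr1 was at -2.17 without DMM and LPS 48 h replicate 1 (adjusted p = 0.0851) and at -3.73 without replicate 2. These comparisons share the libraries with DMM first with those against LPS alone. Ccrl2 stood higher with DMM first, at 2.15 ± 0.85 at 4 h and 2.00 ± 0.77 at 48 h, and passed at neither time. With the compared groups fitted alone it was at 2.22 at 4 h, which passed, and at 2.21 at 48 h, which did not. Cx3cr1 stood at -2.89 ± 1.51 at 4 h and -3.32 ± 1.08 at 48 h, which did not pass (adjusted p = 0.297 and 0.122) and passed with DESeq2 (adjusted p = 0.0487 and 0.00689). Without LPS, DMM against succinate gave 1 call, Ccr2 at 1.70 ± 0.35 (adjusted p = 0.0314), where 0.220% of all genes passed. That call was lost in 5 of 8 fits that each left out a library, namely DMM replicate 2 or 4 or succinate replicate 1, 2 or 3, with values of 1.53 to 1.70 and adjusted p values of 0.0698 to 0.204, and DESeq2 gave no adjusted p for it.

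Among libraries without LPS, levels also differed with the parity of the column number, a division noticed in these data. There were 6 odd and 5 even columns, and the labels do not say what the numbers stand for. The sample labels put libraries without LPS in sets A and B, shared with LPS for 4 h, and sets 1 and 2, shared with LPS for 48 h. Only set 1 has no untreated control, and number 2 alone is missing among the control columns. As the columns are listed, the even ones without LPS stand among those with LPS for 48 h. The odd ones stand among those with LPS for 4 h. Whether the even columns are those of sets 1 and 2 was not tested. Cx3cr1 had 60.4 and 67.0 CPM with DMM, 63.3 and 57.2 CPM with succinate and 35.3 CPM in the control among even columns. Among odd columns it had 12.7 and 17.6 CPM with DMM, 18.8 and 18.1 CPM with succinate and 15.3 and 18.8 CPM in controls. No even library overlapped an odd one. In a model with odd and even libraries as separate groups, the even minus odd difference of Cx3cr1 was 1.59 ± 0.21 on the log2 scale (adjusted p = 1.40e-06). Ccr1 was also called higher in even columns, at 2.0 to 7.5 CPM against 0 to 1.6 CPM (adjusted p = 0.0417), where 4.29% of all genes passed. DESeq2 and the fits without control replicate 1, DMM replicate 2, 3 or 4 or succinate replicate 1, 2 or 4 called Cx3cr1 alone. Ccr2 (1.08 ± 0.35, adjusted p = 0.0691) and Cxcr4 (-0.85 ± 0.29, adjusted p = 0.101) did not pass. Within odd columns the DMM against control values were 3.46 ± 0.66 for Ccr2 (adjusted p = 0.0028) and -2.21 ± 0.47 for Cxcr4 (adjusted p = 0.0112). Within even columns, where there was 1 control, they were 1.92 ± 0.50 (adjusted p = 0.119) and -0.76 ± 0.63 (adjusted p = 0.89). With parity as a term they were 2.59 ± 0.41 (adjusted p = 0.000213) and -1.67 ± 0.36 (adjusted p = 0.00935).

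**Figure D3:**
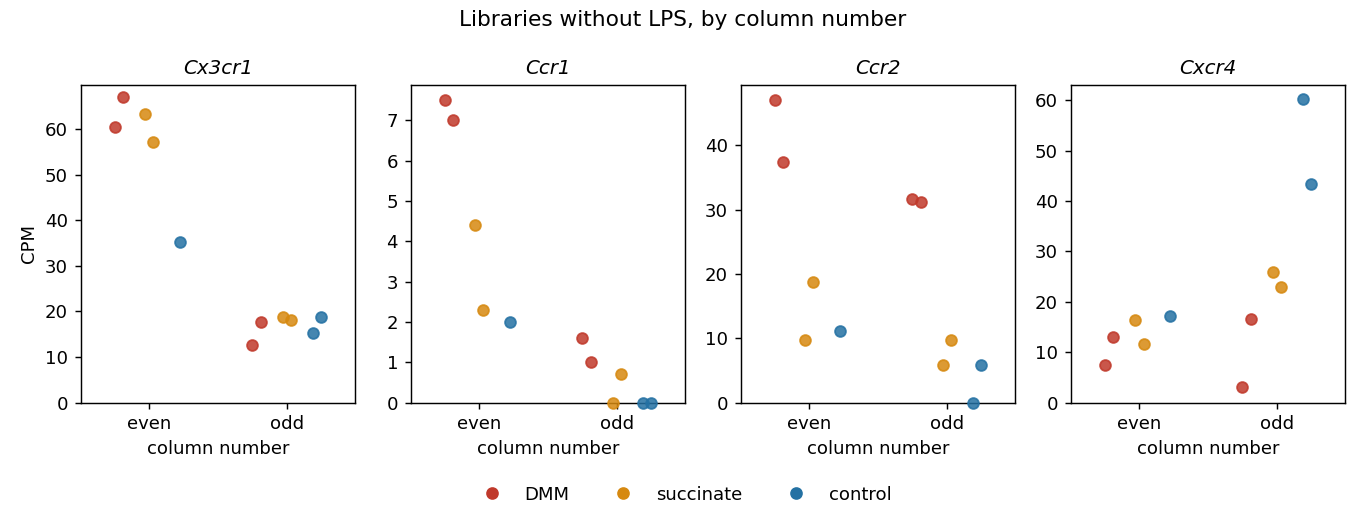
CPM of Cx3cr1, Ccr1, Ccr2 and Cxcr4 in the 11 libraries without LPS, split by even and odd column number; each point is a library and colours give the treatment. Cx3cr1 lay at 35.3 to 67.0 CPM in even and 12.7 to 18.8 CPM in odd columns, while Ccr2 was highest with DMM in both.

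The members were set beside each other and beside the other genes by the Pearson correlation of log2(CPM + 1) over the 20 libraries, which share the contrast with and without LPS and carry no p-value here. Cmklr1 was closest to Gpr84 among members (0.86), and Cxcr4 ran opposite to Fpr2 (-0.89), Fpr1 (-0.85) and Gpr84 (-0.85). Ccr1 had -0.76 with Cxcr4 and 0.59 at most with another member. Of all kept genes, those most like Fpr1 were Sod2, the mitochondrial superoxide dismutase (0.991), and Tnf (0.989), and those most like Fpr2 were Tnfrsf1b, a TNF receptor (0.990), and Sod2 (0.987). Icam1, an adhesion molecule (0.981), and Wnt6 (0.975) were most like Gpr84, and Myadm (0.957) and Sqrdl (0.932) most like Cmklr1. Tlr4, the LPS receptor (0.951), and Snx8 (0.962) were most like Cxcr4. For Ccr2 the genes were Ephx1 (0.902) and Nrm (0.877), for Ccr1 Smox (0.865) and Ly6a (0.854), for Ccrl2 D14Ertd668e (0.894) and Eprs (0.865), and for Cx3cr1 Anxa3 (0.862) and Dpep2 (0.842).

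**Figure D4:**
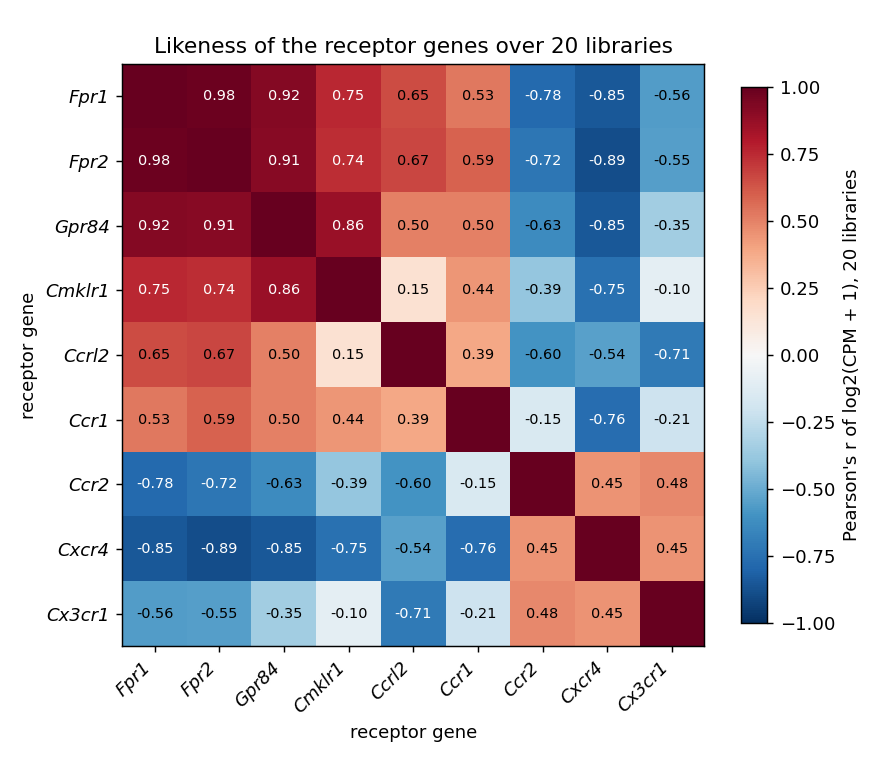
Pearson correlation of log2(CPM + 1) between each pair of receptor genes over 20 libraries; red is positive and blue negative. Fpr1, Fpr2, Gpr84 and Cmklr1 form a positive block of 0.74 to 0.98, and Cxcr4 is negative with all 4.

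Other receptors for metabolites and chemoattractants were set beside the members. Of 11 other fatty acid and metabolite receptors, 0 passed the filter. The succinate receptor Sucnr1 had 1 read in all 21 libraries, and the niacin receptor Niacr1 had at most 15 in a library. Of 21 other chemoattractant receptors, 7 were tested. With LPS for 4 h, 1 rose and 4 fell, with a median of -0.42, and at 48 h, 2 rose and 2 fell, with a median of 0.05. Over all genes 45.1% and 43.9% passed, with medians of -0.10 and -0.13. Gpr18 rose by 6.43 ± 0.35 at 4 h (adjusted p = 1.74e-15), and the platelet-activating factor receptor Ptafr fell by 1.79 ± 0.22 (adjusted p = 6.43e-08). S1pr1, which guides cells toward sphingosine 1-phosphate, fell by 2.71 ± 0.44 and the UDP receptor P2ry6 by 0.72 ± 0.20. At 48 h the complement receptor C3ar1 was among the 2 that rose (0.85 ± 0.23, adjusted p = 0.00299). With DMM before LPS for 4 h, 2 of the 7 were lower, where 14% of all genes passed. C5ar1, a receptor for complement C5a, had 425 to 516 CPM with DMM first and 2000 to 2050 CPM with LPS alone (-2.11 ± 0.34, adjusted p = 8.67e-05). Gpr18 stood at -1.04 ± 0.33 (adjusted p = 0.0329).

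Most of the measured ligands of these receptors rose with LPS. Of 16 listed, 12 were tested, and with LPS 8 rose and 2 fell at each time, with medians of 4.16 at 4 h and 3.73 at 48 h, where 45.1% and 43.9% of all genes passed. Saa3, a serum amyloid A of which other family members are known ligands of Fpr2, rose by 10.21 ± 0.36 at 4 h (adjusted p = 1.00e-20). The Ccr2 ligands Ccl2 and Ccl7 rose by 7.76 ± 0.29 and 8.15 ± 0.40, and Ccl5, a ligand of Ccr1, by 7.60 ± 0.28. At 48 h the Cxcr4 ligand Mif rose by 3.92 ± 0.22 (adjusted p = 1.68e-15). Cxcl12 had 4 reads, Cx3cl1 had 0 and the chemerin gene Rarres2 had 8 over all 21 libraries. With DMM before LPS for 4 h, 6 of the 12 were lower than with LPS alone and 0 higher, with a median of -1.07, where 14% of all genes passed, and Ccl7 was at -2.25 ± 0.35 (adjusted p = 4.32e-05). With succinate before LPS, 5 were lower at 4 h and 4 at 48 h, with 0 higher, where 1.03% and 0.558% of all genes passed. This sets 1 library against 2 at 4 h and 1 against 1 at 48 h, with the spread taken from the other groups. Ccl2 had 288 CPM with succinate first, against 2860 to 3530 CPM with LPS alone for 4 h, a log2 fold change of -3.47 ± 0.62 (adjusted p = 0.00142). Ccl7 stood at -5.71 ± 0.59 (adjusted p = 1.79e-07).

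Of 30 genes of Gi signalling and receptor desensitisation, 25 were tested. With LPS for 4 h, 6 rose and 8 fell, with a median of 0.10, and at 48 h 7 rose and 8 fell, with a median of -0.02, where 45.1% and 43.9% of all genes passed. Rgs10 and Rgs18, which speed the shut-off of Gi proteins, fell by 3.83 ± 0.26 and 3.10 ± 0.32 at 4 h (adjusted p = 1.04e-13 and 1.22e-09). The small GTPase Rac2 rose by 1.96 ± 0.18 (adjusted p = 8.87e-11) and the G protein subunit Gng12 by 1.45 ± 0.14 (adjusted p = 4.81e-10). With DMM before LPS for 4 h, 7 of the 25 were lower than with LPS alone and 0 higher, where 14% of all genes passed, and the median was -0.56 against 0.04 over all genes. Rac2 stood at -1.07 ± 0.34 (adjusted p = 0.0316) and Gng12 at -1.19 ± 0.26 (adjusted p = 0.00166). At 48 h 1 of the 25 was lower, Gng12 at -1.23 ± 0.31 (adjusted p = 0.0494). With succinate before LPS, 0 of the 25 were called at either time.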

How the data were processed

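The authors deposited raw read counts per gene for 21 libraries, whole numbers with no normalization. TopHat2, Bowtie, HTSeq and edgeR are named, without versions, per the submitters' processing notes, while no build, annotation or strand setting is given in the sources used here. Reads of genes that share sequence or overlap could therefore be split or merged in ways that cannot be checked. The table had 0 columns from outside the series. Replicates are named by the numbers in its column names. The columns without LPS carry no hours, so each treatment without LPS was 1 group, and the columns at 4 h could be tied to their group only.

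Counts were analysed in R 4.3.3 with edgeR 4.0.16 and limma 3.58.1. Genes were kept when at least 2 libraries reached the CPM equal to 10 reads at median depth, with 15 reads in total, which left 6812 of 34573 genes. A quasi-likelihood model with TMM scaling, robust dispersions and 9 groups was fitted to 20 libraries (11 residual degrees of freedom), and p-values were adjusted by Benjamini-Hochberg with a threshold of 0.05. Fold changes carry standard errors, and for most comparisons in which a group had 3 reads or fewer the ratio of summed CPM is given, beside or in place of the fitted value, with its 95% counting interval or against a floor of 3 counts. Differences between effects are fitted values only. Such intervals and floors cover counting error only. Correlations and plots use log2(CPM + 1). The analysis was checked on simulated counts with 200 changed genes. For DMM before LPS at 4 h, 11% of log2 changes of 1 and 64% of log2 changes of 2 were recovered. For DMM against control these were 22% and 81%, and for LPS 4 h averaged over pretreatments 60% and 96%. False calls made up 0%, 3.74% and 6.59% of the calls, in that order of comparisons. Apart from these changes each simulated gene had the same mean in all libraries. Log2 changes above 2, and a share of changed genes as high as with LPS, were not simulated. The rates therefore need not hold for members with such changes. Total counts of 662186 to 1546867 per library make 1 CPM about 1 read, so levels of a few CPM are imprecise.

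The members and the gene lists were chosen with earlier results of these data known. Named genes are all members, for each list up to 4 genes with the smallest p in the comparisons of LPS with no LPS averaged over pretreatments, and for each member the 2 genes with the highest correlation. Of other list genes, those named for a low count (Sucnr1, Niacr1, Cxcl12, Cx3cl1 and Rarres2) and those given for DMM or succinate before LPS were chosen after their values were seen. The division by odd and even columns and the difference of the DMM effect between times were likewise chosen after seeing the data. Alternatives were DESeq2 1.42.0, scaling by medians of ratios, omission of the low-count filter, all 21 libraries, the compared groups alone, omission of single libraries and a term for the replicate number. Promoter windows came from RefSeq on GRCm38.p6, and transcript lengths and gene overlaps from GENCODE M21. Figures were drawn with Python 3.11.15, pandas 2.3.3 and matplotlib 3.10.9. The list of other chemokine receptors is not reported here.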

Additional observations from a re-analysis of the deposited data

Results flagged for a closer look

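DMM replicate 2 stood apart from the other 3 libraries with DMM alone for Gpr84, with 10.4 CPM. The gap to the nearest library was 0.926 of the range, above Dixon's 95% critical value. For Fpr2 it had 0.7 CPM, which is 1 read, against 0 in each of the others, where any single read makes the gap the whole range (1.0). These were 2 of 18 sets of libraries examined, and chance gives about 1 in 20.

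The effect of DMM differed with LPS for 4 h from that without LPS for Cmklr1, by -4.64 on the log2 scale (adjusted p = 0.00368, edgeR), and for Gpr84, by -5.77 (adjusted p = 0.000524). Control counts of 2 and 3 reads enter these values.

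The library labelled LPS 48 h replicate 1, which entered no comparison, stood above every control library for 6 members. It had 46.0 CPM of Ccr2 against a highest control of 11.1 CPM, and 10.6 CPM of Ccr1 against 2.0 CPM. It had 6.2 CPM of Ccrl2 against 6.1 CPM, 0.9 CPM of Fpr2 against 0 CPM and 3.5 CPM of Gpr84 against 2.0 CPM. Its Cx3cr1 level was 60.1 CPM against 35.3 CPM. In DMM replicate 2 the levels were 47.0 CPM for Ccr2, 7.5 CPM for Ccr1, 6.0 CPM for Ccrl2, 0.7 CPM for Fpr2, 10.4 CPM for Gpr84 and 60.4 CPM for Cx3cr1.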

How the results depend on the processing

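Counts of members called follow, each with the count as reported. With DESeq2 they were 0 for DMM against control (2), 0 for DMM against succinate (1), 1 for the DMM by LPS difference (2) and 1 for even against odd columns (2). With all 21 libraries they were 2 for DMM before LPS at 4 h (5), 0 at 48 h (2), 0 for DMM against control, 0 for DMM against succinate, 1 and 0 for DMM before LPS against succinate before LPS at 4 h and 48 h (3 and 3) and 0 for the DMM by LPS difference. Fitted on the compared groups alone they were 1 for 48 h against 4 h (0), 1 for LPS 48 h against control (6), 1 for DMM before LPS at 48 h, 1 for succinate before LPS at 4 h (0) and 1 for DMM against control. Within even columns they were 0 for DMM against control and 1 for the DMM by LPS difference, and within odd columns 0 for DMM against succinate and 1 for that difference. Leaving out a library gave 3 to 5 for DMM before LPS at 4 h, 1 to 3 at 48 h, 1 to 2 for DMM against control, 0 to 1 for DMM against succinate, 1 to 2 for the DMM by LPS difference and 1 to 2 for even against odd columns. Some of these moves were not failed tests. In the fit of LPS 48 h and control alone, genes such as Fpr1 and Gpr84, high in 1 library only, fell to the low-count filter. DESeq2 gave no adjusted p for Ccr2 and Cxcr4 in DMM against control, Ccr2 in DMM against succinate and Cmklr1 in the DMM by LPS difference. The cause of the other moves was not tested, beyond the fewer libraries of the smaller fits.

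The replicate block covered the libraries with LPS. Among these, only DMM before LPS and LPS alone at 4 h had 2 pairs, and over genes their same-numbered libraries had deviations that correlated at 0.00042, so the numbers were not taken to pair them. With the block, 1 member passed for DMM before LPS at 48 h, 4 for LPS 48 h against control (6) and 5 for LPS 4 h against control (6), where Ccr2 stood at -3.22 (adjusted p = 0.0607). The other counts of members were those reported.

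Of member values not called, these turned sign. With all 21 libraries, 48 h against 4 h was 0.64 for Ccr2 and -0.12 for Fpr2, LPS 48 h against control 2.11 for Ccr2 and 0.69 for Cx3cr1, and DMM before LPS at 48 h -2.93 for Ccr2 and 0.47 for Fpr2. Within odd columns, LPS 48 h was 0.03 for Cx3cr1, DMM against control -0.12 for Cx3cr1, succinate against control 0.17 for Ccrl2 and -0.25 for Gpr84, DMM against succinate -0.25 for Cx3cr1 and the DMM by LPS difference -0.31 for Ccr1. Within even columns, succinate against control was 0.62 for Fpr1 and -0.14 for Gpr84, DMM against succinate 1.46 for Ccrl2 and -0.33 for Cmklr1, and the DMM by LPS difference 0.05 for Ccr2. With parity as a term, succinate against control was -0.21 for Gpr84 and DMM against succinate -0.03 for Cmklr1 and 0 for Cx3cr1. Fpr1 in succinate against control was 0.01 with no filter, and Ccr1 in succinate before LPS at 48 h was -0.34 with the block.

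Leaving out a library gave ranges that crossed 0. For 48 h against 4 h they were -0.18 to 1.67 for Ccr1, -0.83 to 0.28 for Ccr2 and -0.42 to 0.11 for Cmklr1. LPS 4 h against control ran from -2.81 to 4.58 for Ccr1, and DMM before LPS at 4 h from -1.51 to 3.31 for Cxcr4. Succinate against control ran from -0.93 to 0.10 for Ccrl2, -0.36 to 0.24 for Fpr1 and -0.66 to 0.89 for Gpr84. DMM against succinate ran from -0.89 to 0.27 for Ccrl2, -0.23 to 0.25 for Cmklr1, -0.26 to 0.38 for Cx3cr1 and -0.04 to 2.46 for Gpr84. The DMM by LPS difference ran from -2.21 to 5.15 for Ccr1 and -1.74 to 1.75 for Ccr2.

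Counts over all genes moved by more than 1.5 times as follows. With all 21 libraries they were 25 for 48 h against 4 h (84), 502 for LPS 48 h against control (1414), 456 for DMM before LPS at 4 h (956), 8 and 6 for succinate before LPS at 4 h and 48 h (70 and 38), 0 for DMM against control (38), 1 for DMM against succinate (15), 217 and 61 for DMM before LPS against succinate before LPS (516 and 263) and 97 for the DMM by LPS difference (370). On the compared groups alone they were 156 for 48 h against 4 h, 1754 for DMM before LPS at 4 h and 27 at 48 h (55), 439 for succinate before LPS at 4 h, 24 for DMM against control, 1063 and 152 for DMM against succinate before LPS, 620 for the DMM by LPS difference and 5 for the DMM effect between times (0). With no filter they were 134 for 48 h against 4 h, 107 for DMM and 72 for succinate before LPS at 48 h, 121, 6 and 65 for DMM against control, succinate against control (0) and DMM against succinate, and 6 for the DMM effect between times. DESeq2 gave 109 for DMM before LPS at 48 h, 2 for succinate against control, 1 for the DMM effect between times and 147 for even against odd columns (292). The block gave 30 and 13 for DMM and succinate before LPS at 48 h, 596 for DMM against succinate before LPS at 48 h and 22 for the DMM effect between times. Even columns gave 4, 1, 34 and 138 for DMM against control, succinate against control, DMM against succinate and the DMM by LPS difference, and parity as a term gave 103, 4 and 60 for the first 3. Leaving out a library gave 51 to 151 for 48 h against 4 h, 279 to 614 for DMM before LPS at 4 h, 35 to 337 at 48 h, 22 to 36 for succinate before LPS at 4 h, 4 to 136 for DMM against control, 0 to 1 for succinate against control, 2 to 23 for DMM against succinate, 144 to 351 and 125 to 611 for DMM against succinate before LPS at 4 h and 48 h, 84 to 421 for the DMM by LPS difference, 0 to 25 for the DMM effect between times and 186 to 267 for even against odd columns.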
